A study of Mus musculus with 20 samples.

Results

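Plasma membrane transporters of amino acids were followed in endothelial cells sorted from inflamed and uninflamed mouse ears. The 10 genes were Slc7a1, Slc7a2, Slc7a5, Slc3a2, Slc1a1, Slc1a4, Slc1a5, Slc38a1, Slc38a2 and Slc38a5, of 22180 genes that the array measures with a probe set of 1 gene symbol. A probe set was taken for a gene where the platform annotation gave that symbol alone, and the probe set with the highest mean over the 20 arrays stood for a gene with several. All 10 were found, and 9 exceeded the array median on at least 4 arrays and were tested.

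Cells take up amino acids through several carrier families. Cationic amino acid transporters (Slc7a1 and Slc7a2) carry arginine, lysine and ornithine. The heavy chain Slc3a2, also called 4F2hc or CD98, brings light chains such as Slc7a5 (LAT1) to the cell surface, and the pair exchanges large neutral amino acids such as leucine for glutamine. The Slc1 family holds a glutamate and cysteine carrier (Slc1a1) and exchangers of small neutral amino acids (Slc1a4) and glutamine (Slc1a5), while Slc38 proteins are sodium-coupled carriers that load cells with glutamine, alanine and serine. In endothelium, imported arginine feeds nitric oxide and polyamine synthesis, and leucine and arginine inside the cell are sensed by the growth kinase complex mTORC1. Several of these carriers are known targets of ATF4, the transcription factor of the amino acid response.

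The arrays came from 4 groups: NICD1-EC-OE mice with DNFB on the ear (4 arrays), NICD1-EC-OE mice with vehicle (4), control mice with DNFB (6) and control mice with vehicle (6). DNFB (dinitrofluorobenzene) is a hapten that elicits contact hypersensitivity. Per the labels' protocols, mice received 5 daily tamoxifen injections, were sensitised with DNFB and had DNFB applied to the ear pinna on day 5. Cells that carried CD31 but neither CD45 nor Ter119 were sorted from collagenase-digested ears after 24 h. NICD1-EC-OE mice carry an inducible, constitutively active Notch1 intracellular domain in endothelium. Their labels name both a Pdgfb-CreERT2 and a CDH5-iCre driver with the Rosa26 NICD allele, and the controls are described as control only, without alleles, strain or age. The title and the description of NICD1-EC-OE vehicle replicate 4 disagree on its treatment, and the title (vehicle) was followed here. Without that array, DNFB still raised 4 and lowered 1 of the transporters in NICD1-EC-OE mice, and 3 were lower in NICD1-EC-OE than in control vehicle ears. Each label names a treated ear of a mouse and a replicate number. Nothing says whether ears of 1 mouse gave arrays of both treatments.

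The table held log2 values after RMA (robust multi-array average). Array medians were 3.52 to 3.62 in NICD1-EC-OE arrays and 3.87 to 3.98 in control arrays, so differences between genotypes are given as deposited and again with each array centred on its median. Xist was at 8.47 to 9.07 in the 8 NICD1-EC-OE arrays and at 2.27 to 3.16 in the 12 control arrays, so genotype, sex and the scale of the arrays cannot be told apart. Notch1 averaged 9.76 ± 0.10 in NICD1-EC-OE DNFB ears, 9.71 ± 0.16 in NICD1-EC-OE vehicle ears, 9.76 ± 0.14 in control DNFB ears and 9.82 ± 0.12 in control vehicle ears (SD), and the probe set need not report the transgene. All 10 endothelial markers listed (Pecam1, Cdh5, Tek, Kdr and others) lay above background in every group. Background was set by chemosensory receptor genes, whose 95th percentile was 3.48 in NICD1-EC-OE DNFB ears, 3.50 in NICD1-EC-OE vehicle ears, 3.90 in control DNFB ears and 3.95 in control vehicle ears. Values are from bulk sorts, in which fewer cells of a type and less RNA per cell cannot be told apart.

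Promoters of 6 of the genes were available from RefSeq (GRCm38.p6), as windows from 250 bases before to 50 after the start site. They were searched on both strands for 2 short motifs: the core of the amino acid response element bound by ATF4, TGATGNAA, found in 3.97% of 32851 windows, and the core of the antioxidant response element, TGACNNNGC, found in 12.4%. The stretches of Slc1a4 and Slc7a1 are shown because one gene did not pass the DNFB test and the other had the largest DNFB difference of the 10 in control mice. Both lie on the minus strand and are written 5′ to 3′ along the gene, with the match in capitals. The Slc1a4 stretch is chr11:20332704-20332823 and the Slc7a1 stretch is chr5:148399895-148400014.
Slc1a4: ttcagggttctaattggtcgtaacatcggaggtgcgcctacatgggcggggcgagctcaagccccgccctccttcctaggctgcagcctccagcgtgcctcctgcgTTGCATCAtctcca
Slc7a1: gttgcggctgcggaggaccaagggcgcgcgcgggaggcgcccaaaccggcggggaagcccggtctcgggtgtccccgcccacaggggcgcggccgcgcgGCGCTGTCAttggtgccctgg
The Slc1a4 match is the ATF4 core read on the opposite strand, beginning at position -4 from the start site, and the Slc7a1 match is the antioxidant core on the opposite strand at -11. Slc38a2 held the antioxidant core as TGACGCGGC at -27. A second Slc7a1 window and those of Slc3a2, Slc1a1 and Slc38a5 held neither run of letters.

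The first question was what DNFB inflammation did to the transporters in each genotype. In control endothelium, DNFB raised 5 of the 9 genes tested (Slc7a1, Slc38a1, Slc7a5, Slc1a5 and Slc1a1) and lowered 1 (Slc7a2), while 23.7% of all 14886 probe sets tested rose and 23.6% fell. In NICD1-EC-OE endothelium, DNFB raised 4 (Slc38a1, Slc7a1, Slc7a5 and Slc1a5) and lowered Slc7a2, against 20% of all probe sets that rose and 18.1% that fell. The median difference of the 9 genes was 0.47 log2 in NICD1-EC-OE mice and 0.79 log2 in control mice, against medians over all probe sets of 0.0067 in NICD1-EC-OE mice and -0.0012 in control mice. All tests were limma fits over the whole table with Benjamini-Hochberg adjustment, and each difference is DNFB minus vehicle in log2 with its standard error. The genotypes share the fit but no arrays.

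**Figure D1:**
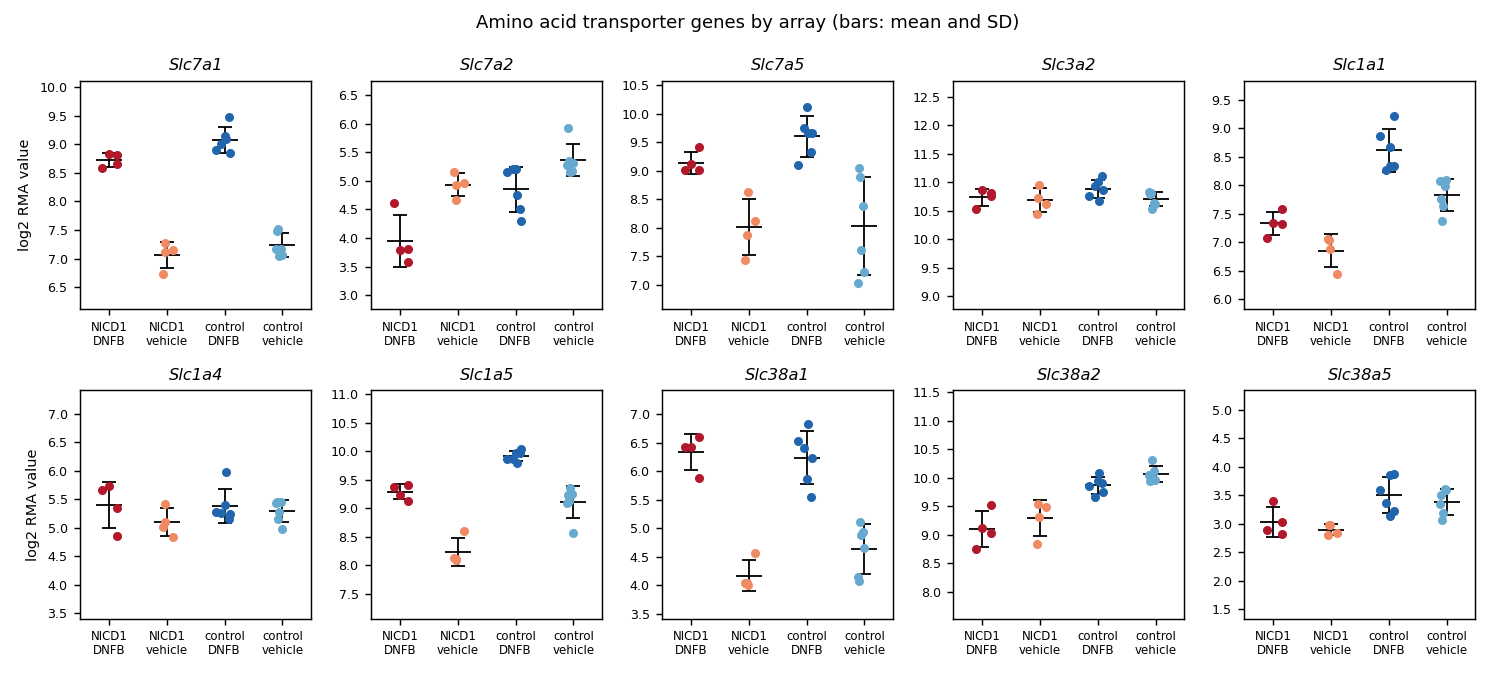
Log2 RMA value of each of the 10 transporter genes on every array (points), with group mean and SD (bars), for NICD1-EC-OE (written NICD1) and control mice given DNFB or vehicle; the vertical axes cover 4 log2 units each but at different levels. Slc7a1 and Slc38a1 separate DNFB from vehicle in both genotypes, Slc3a2 does not, and Slc38a5 stays low in all 4 groups.

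Slc7a1, the main arginine carrier of most cells, stood at 8.83, 8.81, 8.59 and 8.65 log2 in NICD1-EC-OE DNFB ears, against 6.74, 7.27, 7.15 and 7.11 in NICD1-EC-OE vehicle ears. In control mice it stood at 9.10, 8.90, 9.49, 9.15, 9.0 and 8.85 in DNFB ears, against 7.04, 7.06, 7.16, 7.17, 7.49 and 7.52 in vehicle ears. Every DNFB array of either genotype lay above every vehicle array by more than 1 log2 unit. Slc7a1 rose by 1.66 ± 0.15 in NICD1-EC-OE mice (3.16-fold, adjusted p = 4.6e-08, limma) and by 1.84 ± 0.12 in control mice (3.59-fold, adjusted p = 3.17e-10, limma). These differences were number 212 from the top of the 14886 probe sets in NICD1-EC-OE mice and number 179 in control mice.

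Slc7a2, a second cationic carrier, moved the other way. It stood at 3.79, 3.57, 4.61 and 3.81 log2 in NICD1-EC-OE DNFB ears, against 5.16, 4.67, 4.97 and 4.93 in vehicle ears, and fell by 0.98 ± 0.23 (adjusted p = 0.00196, limma). In those DNFB ears Slc7a2 averaged 3.95, near the background level of 3.48, so the size of the fall was measured close to the floor. In control mice it stood at 4.75, 5.15, 4.52, 5.21, 5.21 and 4.30 in DNFB ears, against 5.16, 5.32, 5.28, 5.18, 5.93 and 5.35 in vehicle ears. The NICD1-EC-OE groups did not overlap, the control groups did, and the fall of 0.51 ± 0.19 in control mice (adjusted p = 0.0308, limma) lost its call without any of 4 arrays. These were control DNFB replicates 1, 3 and 6 and control vehicle replicate 5, with an adjusted p of up to 0.0847.

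Slc7a5, the light chain that carries leucine and other large neutral amino acids, stood at 9.12, 9.01, 9.01 and 9.42 log2 in NICD1-EC-OE DNFB ears, against 7.44, 8.64, 8.11 and 7.87 in vehicle ears. In control mice the values were 9.67, 9.10, 9.32, 10.11, 9.75 and 9.66 in DNFB ears, against 7.62, 7.23, 7.04, 8.38, 9.05 and 8.90 in vehicle ears. The groups did not overlap in either genotype, although the highest control vehicle array came within 0.05 of the lowest control DNFB array. Slc7a5 varied more among control vehicle ears (SD 0.86) than in the other groups (SD 0.19 to 0.50). It rose by 1.12 ± 0.37 in NICD1-EC-OE mice (2.18-fold, adjusted p = 0.0202, limma) and by 1.57 ± 0.30 in control mice (2.96-fold, adjusted p = 0.000212, limma). The NICD1-EC-OE rise was not past the threshold without NICD1-EC-OE vehicle replicate 1 (0.93, adjusted p = 0.0735) or DNFB replicate 4 (1.03, adjusted p = 0.0548).

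Slc3a2, the heavy chain that Slc7a5 needs to reach the membrane, lay far above background in every group. It averaged 10.74 ± 0.15 log2 in NICD1-EC-OE DNFB ears and 10.68 ± 0.21 in vehicle ears (SD, n = 4 each), and 10.89 ± 0.16 in control DNFB ears and 10.70 ± 0.12 in vehicle ears (SD, n = 6 each). The arrays of DNFB and vehicle ears overlapped in both genotypes. The difference was 0.05 ± 0.12 in NICD1-EC-OE mice (95% confidence interval -0.20 to 0.31, adjusted p = 0.779, limma) and 0.19 ± 0.10 in control mice (-0.03 to 0.40, adjusted p = 0.141, limma). The rise of the Slc7a5 light chain was thus seen without a detected change of its heavy chain.

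Slc3a2 pairs with several other light chains, and these went separate ways. Slc7a6, which exchanges arginine for glutamine and sodium, averaged 7.27 ± 0.22 log2 in NICD1-EC-OE DNFB ears and 6.21 ± 0.21 in vehicle ears, and 8.08 ± 0.16 in control DNFB ears and 7.05 ± 0.09 in vehicle ears (SD). It rose by 1.06 ± 0.13 (adjusted p = 1.56e-06) in NICD1-EC-OE mice and by 1.03 ± 0.10 (adjusted p = 8.53e-08) in control mice, with no overlap between treatments. Slc7a11, the cystine and glutamate exchanger, was at 6.90 to 7.57 in NICD1-EC-OE DNFB ears against 2.23 to 3.08 in vehicle ears, and at 7.94 to 9.37 in control DNFB ears against 2.15 to 3.74 in vehicle ears. Its vehicle values were at background, so set against the background level it was at least 13.8-fold higher with DNFB in NICD1-EC-OE mice and at least 25.6-fold higher in control mice. The remaining light chains did not follow. Slc7a7, a carrier of the same kind as Slc7a6, differed by 0.35 ± 0.22 (adjusted p = 0.239) in NICD1-EC-OE mice and fell by 0.46 ± 0.18 (adjusted p = 0.0431) in control mice, a call lost with centred arrays (adjusted p = 0.056). Slc7a8, a second carrier of neutral amino acids, differed by -0.18 ± 0.39 in NICD1-EC-OE mice (adjusted p = 0.758) and by -0.33 ± 0.32 in control mice (adjusted p = 0.421). Slc7a10 averaged 3.13 and 3.42 in NICD1-EC-OE DNFB and vehicle ears and 3.74 and 3.48 in control DNFB and vehicle ears, at or under background, and was not tested.

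**Figure D2:**
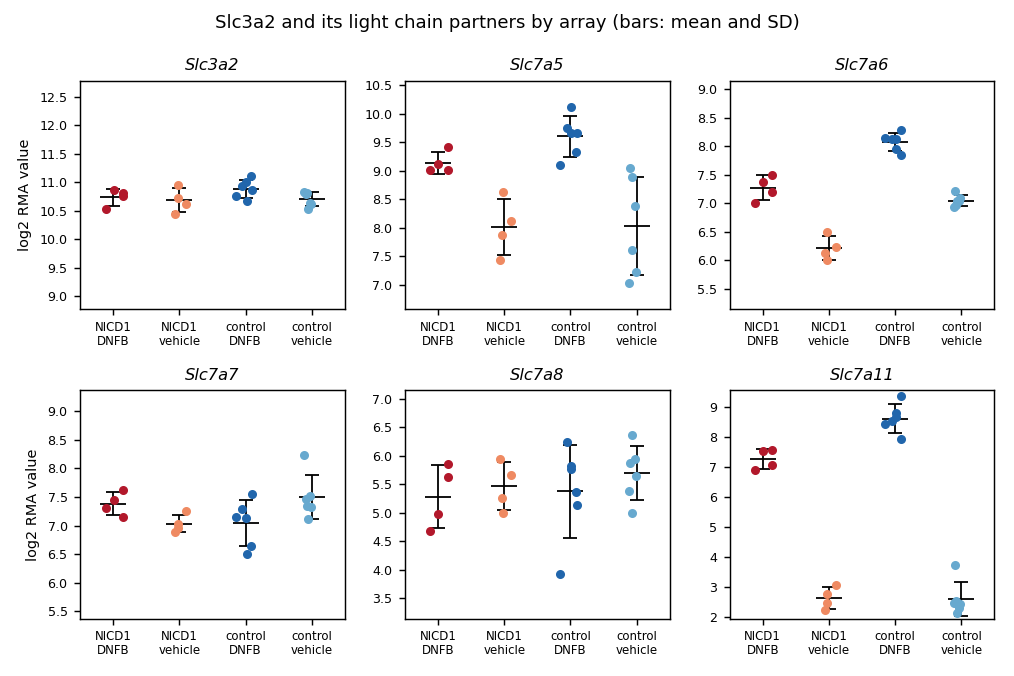
Log2 RMA value of the heavy chain gene Slc3a2 and of 5 light chain partners on every array (points), with group mean and SD (bars), for NICD1-EC-OE (NICD1) and control mice given DNFB or vehicle. Slc7a5, Slc7a6 and Slc7a11 are higher with DNFB in both genotypes, with Slc7a11 between 2.15 and 3.74 in all vehicle arrays, while Slc3a2 and Slc7a8 overlap between treatments.

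Of the Slc1 carriers, the glutamine exchanger Slc1a5 (ASCT2) rose in both genotypes. It stood at 9.23, 9.14, 9.38 and 9.41 log2 in NICD1-EC-OE DNFB ears, against 8.13, 8.09, 8.60 and 8.11 in vehicle ears, and rose by 1.06 ± 0.15 (2.08-fold, adjusted p = 1.03e-05, limma). In control mice it stood at 9.80, 9.87, 9.97, 9.98, 9.87 and 10.04 in DNFB ears, against 9.35, 8.57, 9.09, 9.25, 9.24 and 9.13 in vehicle ears, and rose by 0.82 ± 0.12 (1.76-fold, adjusted p = 1.22e-05, limma). No vehicle array reached the DNFB arrays of its genotype. A second, dimmer Slc1a5 probe set (mean 4.27 over 20 arrays) differed by 0.62 ± 0.28 in NICD1-EC-OE mice (adjusted p = 0.0934) and by 0.34 ± 0.23 in control mice (adjusted p = 0.25), neither past the threshold.

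Slc1a1 (EAAC1), a carrier of glutamate, aspartate and cysteine, passed the test in control mice and, as deposited, not in NICD1-EC-OE mice. It stood at 7.35, 7.32, 7.08 and 7.58 log2 in NICD1-EC-OE DNFB ears, against 7.06, 6.88, 6.44 and 7.05 in vehicle ears, a difference of 0.47 ± 0.21 (adjusted p = 0.0756, limma) that passed under several other settings. These were centred arrays (0.52, adjusted p = 0.0497), array weights (0.47, adjusted p = 0.0434), a fit of only the groups compared (adjusted p = 0.0457), a fixed replicate block (adjusted p = 0.0179) and the shared fit without control DNFB replicate 3 (adjusted p = 0.0447). In control mice it stood at 8.67, 8.87, 9.21, 8.33, 8.27 and 8.34 in DNFB ears, against 7.65, 8.09, 8.08, 7.99, 7.77 and 7.38 in vehicle ears, a rise of 0.79 ± 0.17 (1.73-fold, adjusted p = 0.000554, limma). The treatments did not overlap in either genotype. Slc1a4 (ASCT1), whose promoter holds the ATF4 core shown above, averaged 5.40 and 5.09 in NICD1-EC-OE DNFB and vehicle ears and 5.38 and 5.29 in control DNFB and vehicle ears. Its difference was 0.31 ± 0.20 (adjusted p = 0.243, or 0.0487 without DNFB replicate 4) in NICD1-EC-OE mice and 0.09 ± 0.16 (adjusted p = 0.661) in control mice. The 95% confidence intervals of these Slc1a4 differences ran from -0.10 to 0.71 in NICD1-EC-OE mice and from -0.24 to 0.43 in control mice.

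The sodium-coupled Slc38 carriers split into 3 patterns. Slc38a1 (SNAT1), a glutamine importer, stood at 6.42, 6.60, 6.41 and 5.88 log2 in NICD1-EC-OE DNFB ears, against 4.04, 4.00, 4.57 and 4.04 in vehicle ears, a rise of 2.16 ± 0.26 (4.48-fold, adjusted p = 1.78e-06, limma). In control mice it stood at 6.82, 6.52, 5.55, 5.86, 6.41 and 6.23 in DNFB ears, against 4.89, 4.65, 4.14, 4.94, 4.07 and 5.11 in vehicle ears, a rise of 1.60 ± 0.21 (3.03-fold, adjusted p = 3.55e-06, limma). The treatments did not overlap in either genotype, and the NICD1-EC-OE rise was number 107 from the top of all probe sets. Vehicle means of Slc38a1, 4.165 in NICD1-EC-OE and 4.634 in control mice, lay near background (95th percentile 3.50 and 3.95). The size of both rises was thus measured from close to the floor. Slc38a2 (SNAT2), the carrier best known for its induction when amino acids run short, lay far above background and did not pass the test. It averaged 9.10 ± 0.32 and 9.30 ± 0.32 in NICD1-EC-OE DNFB and vehicle ears (difference -0.19 ± 0.16, 95% confidence interval -0.53 to 0.14, adjusted p = 0.38), and 9.87 ± 0.15 and 10.07 ± 0.14 in control DNFB and vehicle ears (-0.20 ± 0.13, -0.47 to 0.08, adjusted p = 0.237, limma). Slc38a5 (SNAT5), an X-linked glutamine and asparagine carrier, averaged 3.03 and 2.90 in NICD1-EC-OE DNFB and vehicle ears and 3.51 and 3.38 in control DNFB and vehicle ears. These levels were not told from background in any group, and Slc38a5 was not tested.

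**Figure D3:**
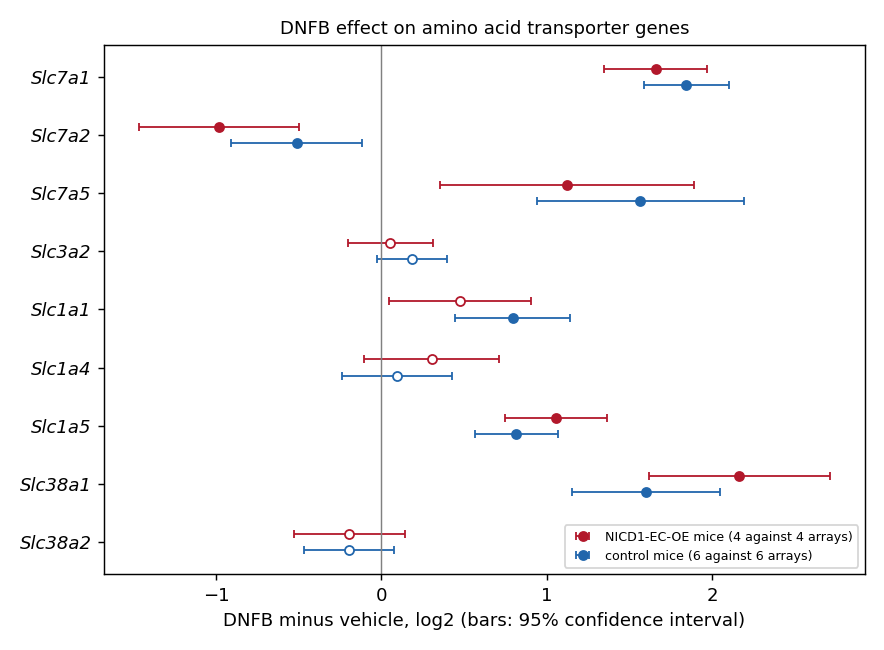
DNFB minus vehicle (log2, horizontal axis) for the 9 transporter genes tested, in NICD1-EC-OE mice (4 against 4 arrays) and control mice (6 against 6 arrays), with 95% confidence intervals as bars; filled points have an adjusted p under 0.05. Slc7a1, Slc38a1, Slc7a5 and Slc1a5 lie right of 0 in both genotypes, Slc7a2 lies left of it in both, and the intervals of the genotypes overlap for every gene.

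Whether the DNFB effect itself differed between genotypes was tested with an interaction term, NICD1-EC-OE minus control. None of the 9 genes passed (adjusted p 0.584 to 0.999, limma), none had an unadjusted p under 0.05, and 0.0134% of all probe sets passed in either direction. The largest interaction was that of Slc38a1, at 0.57 ± 0.34 with a 95% confidence interval of -0.14 to 1.27, followed by Slc7a2 at -0.47 ± 0.30 (-1.09 to 0.15) and Slc7a5 at -0.44 ± 0.48 (-1.43 to 0.55). Vehicle levels of Slc38a1 and the NICD1-EC-OE DNFB level of Slc7a2 lay near background, so the sizes of their interactions are uncertain. The interaction of Slc1a1, which passed the DNFB test in 1 genotype, was -0.32 ± 0.27 (-0.87 to 0.23, adjusted p = 0.708).

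The second question was how the genotypes differed within a treatment. As deposited, 5 of the 9 genes were lower in NICD1-EC-OE than in control DNFB ears (Slc1a1, Slc7a2, Slc38a2, Slc1a5 and Slc7a1) and none was higher, where 35.1% of all probe sets were lower and 5.45% higher. In vehicle ears, 3 of 9 were lower (Slc1a1, Slc1a5 and Slc38a2) and none was higher, where 33% of all probe sets were lower and 2.88% higher. Centring moved all probe sets by 0.37 in DNFB ears and 0.33 in vehicle ears. With centred arrays, 2 of 9 were lower in DNFB ears (Slc1a1 and Slc38a2; all probe sets 8.12% lower and 20.7% higher) and 3 of 9 in vehicle ears (Slc1a1, Slc1a5 and Slc38a2; all probe sets 6.54% lower and 11.9% higher), and none was higher.

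Slc1a1 had the largest genotype difference among the transporters. It averaged 7.33 ± 0.20 in NICD1-EC-OE and 8.62 ± 0.37 in control DNFB ears (SD), a difference of -1.28 ± 0.19 (adjusted p = 5.39e-05, limma), or -0.91 with centred arrays (adjusted p = 0.00115). In vehicle ears it averaged 6.86 ± 0.29 in NICD1-EC-OE and 7.82 ± 0.28 in control mice, a difference of -0.97 ± 0.19 (adjusted p = 0.00076), or -0.64 centred (adjusted p = 0.0212). As deposited, the genotypes did not overlap in either treatment. With centred arrays they overlapped in vehicle ears, where NICD1-EC-OE replicate 1 was at 3.4875 and control replicate 6 at 3.484. Slc1a1 kept its call on both scales. Slc38a2 differed by -0.77 ± 0.15 in DNFB ears (adjusted p = 0.000543, -0.39 and adjusted p = 0.0392 centred) and by -0.77 ± 0.15 in vehicle ears (adjusted p = 0.000683, -0.44 and adjusted p = 0.0332 centred). Slc1a5 differed by -0.63 ± 0.14 in DNFB ears (adjusted p = 0.00134, -0.26 and adjusted p = 0.153 centred) and by -0.87 ± 0.14 in vehicle ears (adjusted p = 0.00012, -0.54 and adjusted p = 0.008 centred). The second Slc1a5 probe set differed by -0.41 ± 0.26 in DNFB ears (adjusted p = 0.217), which is not past the threshold, and by -0.69 ± 0.26 in vehicle ears (adjusted p = 0.0431).

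The calls of the cationic carriers between genotypes rested on the scale. Slc7a2 differed by -0.91 ± 0.21 in DNFB ears (adjusted p = 0.00242), against -0.54 (adjusted p = 0.0646) with centred arrays, and its NICD1-EC-OE values there lay near background. Slc7a1 differed by -0.36 ± 0.14 in DNFB ears (adjusted p = 0.0417), against 0.01 (adjusted p = 0.963) centred. As deposited, that call was also lost without any of 7 DNFB arrays (all 4 NICD1-EC-OE arrays and control replicates 1, 3 and 4), with an adjusted p of up to 0.115, and with no filter on dim probe sets (0.0515), with probe sets of any annotation (0.0547) and with only the groups compared (0.0538). Slc7a5 and Slc38a1, which rose with DNFB in both genotypes, passed in neither treatment on either scale, nor did Slc3a2 and Slc1a4. Slc7a5 differed by -0.46 ± 0.34 in DNFB ears and -0.02 ± 0.34 in vehicle ears, and Slc38a1 by 0.10 ± 0.24 in DNFB ears and -0.47 ± 0.24 in vehicle ears. Sex and the arrays' scale move with genotype in all of these, and their part was not tested.

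**Figure D4:**
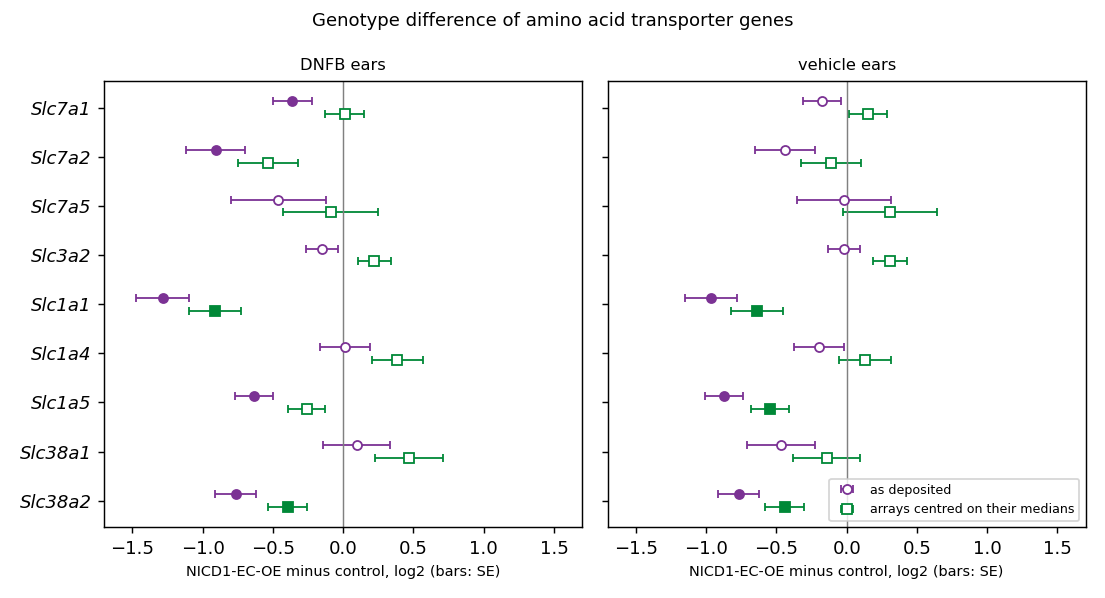
NICD1-EC-OE minus control (log2, horizontal axis, bars SE) for the 9 transporter genes tested, in DNFB ears (left) and vehicle ears (right), as deposited (circles) and with each array centred on its median (squares); filled symbols have an adjusted p under 0.05. Slc1a1 and Slc38a2 are lower in NICD1-EC-OE mice in both treatments on both scales, whereas the other genes change side or call in at least 1 treatment or are not past the threshold.

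A list of other amino acid carriers was set beside these 10. Of 30 listed, 19 were tested, of which 4 rose and 2 fell with DNFB in NICD1-EC-OE mice, and 6 rose and 3 fell in control mice, with medians of 0.18 log2 in NICD1-EC-OE mice and 0.15 log2 in control mice. Slc7a11 lay under the array median in every vehicle ear and passed the filter only through its DNFB arrays. Its place among the genes that rose was thus favoured by the filter. Shares of 21.1% higher and 10.5% lower in NICD1-EC-OE mice and 31.6% higher and 15.8% lower in control mice stood against 20% and 18.1% of all probe sets in NICD1-EC-OE mice and 23.7% and 23.6% in control mice, and are read as near that background. Beside Slc7a11 and Slc7a6, the largest control differences were those of the taurine carrier Slc6a6, which fell by 1.06 ± 0.16 in NICD1-EC-OE mice (adjusted p = 1.7e-05) and by 1.17 ± 0.13 in control mice (adjusted p = 2.24e-07), and of Slc38a9, the lysosomal arginine sensor of mTORC1, which fell by 0.78 ± 0.20 in NICD1-EC-OE mice (adjusted p = 0.00365) and by 1.16 ± 0.16 in control mice (adjusted p = 5.35e-06). Slc6a17 came next, with a higher mean with DNFB in both genotypes. It averaged 4.82 and 4.05 in NICD1-EC-OE DNFB and vehicle ears, and 5.51 and 4.46 in control DNFB and vehicle ears. Its arrays overlapped between treatments in both genotypes. The vehicle means lay near background (95th percentile 3.50 in NICD1-EC-OE and 3.95 in control vehicle ears).

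Genes that use the imported amino acids were set beside the carriers. These lists, like the carriers, were chosen with earlier results of these data known, so their counts describe and do not test. Of 17 cytosolic aminoacyl-tRNA synthetases tested, the enzymes that load amino acids onto tRNA, 16 rose with DNFB in NICD1-EC-OE mice and 15 in control mice, and none fell (medians 0.96 in NICD1-EC-OE mice and 0.99 in control mice), against 20% of all probe sets that rose in NICD1-EC-OE mice and 23.7% in control mice. Rars, the enzyme for arginine, rose by 1.37 ± 0.14 in NICD1-EC-OE mice (adjusted p = 2.51e-07) and by 1.54 ± 0.12 in control mice (adjusted p = 1.49e-09). Gars, for glycine, rose by 1.34 ± 0.10 in NICD1-EC-OE mice (adjusted p = 7.04e-09) and by 1.41 ± 0.08 in control mice (adjusted p = 1.02e-10). Hars, for histidine, rose by 0.92 ± 0.16 in NICD1-EC-OE mice and by 1.25 ± 0.13 in control mice, and Yars, for tyrosine, by 1.13 ± 0.14 in NICD1-EC-OE mice and by 1.25 ± 0.11 in control mice. The exceptions were Qars, for glutamine, at 0.01 in NICD1-EC-OE mice (adjusted p = 0.96) and -0.23 in control mice (adjusted p = 0.104), and Wars, for tryptophan, which rose in NICD1-EC-OE mice (0.93, adjusted p = 0.0109) and was at 0.37 (adjusted p = 0.192) in control mice.

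Of 14 genes of glutamine and glutamate use tested, 10 rose in each genotype (71.4%, against 20% of all probe sets in NICD1-EC-OE mice and 23.7% in control mice), and 1 fell in NICD1-EC-OE and 2 in control mice (medians 0.87 in NICD1-EC-OE mice and 1.05 in control mice). Gclm and Gclc, the subunits of the first enzyme of glutathione synthesis, rose by 1.61 ± 0.17 and 0.54 ± 0.20 in NICD1-EC-OE mice (adjusted p = 2.49e-07 and 0.0358) and by 2.04 ± 0.14 and 1.43 ± 0.16 in control mice (adjusted p = 3.24e-10 and 3.92e-07). Asns, which makes asparagine from glutamine, rose by 1.99 ± 0.14 in NICD1-EC-OE mice (adjusted p = 2.47e-09) and by 1.77 ± 0.11 in control mice (adjusted p = 1.85e-10). Ctps, which uses glutamine to make CTP, rose by 1.47 ± 0.14 in NICD1-EC-OE mice (adjusted p = 5.62e-08) and by 1.35 ± 0.11 in control mice (adjusted p = 5.36e-09). Glul, which makes glutamine rather than consuming it, fell by 0.62 ± 0.09 in NICD1-EC-OE mice (adjusted p = 1.12e-05) and by 0.76 ± 0.07 in control mice (adjusted p = 3.47e-08). Glul was chosen after its values were seen, as were Qars and Wars above.

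Of 14 arginine-using genes tested, 5 rose and none fell in NICD1-EC-OE mice, and 4 rose and 4 fell in control mice (medians 0.04 in NICD1-EC-OE mice and -0.07 in control mice). The control shares, 28.6% in each direction, were near the 23.7% and 23.6% of all probe sets, and the NICD1-EC-OE share of 35.7% higher stood against 20%. Odc1 and Srm, which turn ornithine into polyamines, rose most: Srm by 2.27 ± 0.19 in NICD1-EC-OE mice (adjusted p = 1.53e-08) and 1.89 ± 0.15 in control mice (adjusted p = 4.3e-09), and Odc1 by 2.24 ± 0.19 in NICD1-EC-OE mice (adjusted p = 2.33e-08) and 1.83 ± 0.16 in control mice (adjusted p = 9.35e-09). Arg1, which makes ornithine from arginine, rose by 0.96 ± 0.36 in NICD1-EC-OE mice (adjusted p = 0.0404) and 0.81 ± 0.29 in control mice (adjusted p = 0.0289). Its control vehicle mean of 3.87 was not told from background (95th percentile 3.95), and its control DNFB arrays ran from 3.84 to 5.64. The size of the control rise of Arg1 is therefore uncertain. Gatm, an enzyme of creatine synthesis, was at -0.27 (adjusted p = 0.448) in NICD1-EC-OE mice and fell by 0.70 ± 0.21 in control mice (adjusted p = 0.00965). The control fall of Gatm ended at a mean of 3.82, not told from background (95th percentile 3.90), so its size is uncertain too.

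Of 24 amino acid response genes linked to ATF4 that were tested, 8 rose and 3 fell in NICD1-EC-OE mice, and 11 rose and 3 fell in control mice (medians 0.10 in NICD1-EC-OE mice and 0.30 in control mice). That was 33.3% higher and 12.5% lower in NICD1-EC-OE mice, against 20% and 18.1% of all probe sets, and 45.8% higher and 12.5% lower in control mice, against 23.7% and 23.6%. The 4 with the largest control differences among those past the threshold were metabolic enzymes. Mthfd2, of mitochondrial folate metabolism, rose by 2.38 ± 0.24 in NICD1-EC-OE mice (adjusted p = 1.73e-07) and by 2.67 ± 0.20 in control mice (adjusted p = 1.03e-09). Aldh18a1, of proline synthesis, rose by 1.93 ± 0.16 in NICD1-EC-OE mice and 1.63 ± 0.13 in control mice, and Psat1, of serine synthesis, by 1.13 ± 0.29 in NICD1-EC-OE mice and 1.10 ± 0.24 in control mice, beside Asns above. Of the list's stress-signalling members, chosen here after their values were seen, Atf4 itself rose by 0.35 ± 0.10 in NICD1-EC-OE mice (adjusted p = 0.00566) and 0.22 ± 0.08 in control mice (adjusted p = 0.0227), and Cebpb rose by 0.49 (adjusted p = 0.013) in NICD1-EC-OE mice and 0.38 (adjusted p = 0.0143) in control mice. Chac1 was at 0.49 (adjusted p = 0.13) in NICD1-EC-OE mice and rose by 0.59 (adjusted p = 0.0217) in control mice, and Nupr1 was at 0.19 (adjusted p = 0.623) in NICD1-EC-OE mice and rose by 0.67 (adjusted p = 0.0141) in control mice. The 3 that fell, in both genotypes, were Ddit4 (-1.25 in NICD1-EC-OE mice and -1.06 in control mice), Cebpg (-0.55 in NICD1-EC-OE mice and -0.77 in control mice) and Atf3 (-0.52 in NICD1-EC-OE mice and -0.54 in control mice). Trib3 was at -0.27 in NICD1-EC-OE mice (adjusted p = 0.208) and -0.12 in control mice (adjusted p = 0.49). Genes of amino acid sensing by mTORC1 were called 5 higher and 6 lower of 25 in each genotype (medians -0.08 in NICD1-EC-OE mice and -0.17 in control mice). Those shares, 20% higher and 24% lower, were near the background in both genotypes. The cytosolic arginine sensor Castor1 fell by 1.46 ± 0.17 in NICD1-EC-OE mice (adjusted p = 9.57e-07) and fell by 1.49 ± 0.14 in control mice (adjusted p = 2.66e-08). Sesn1, of the leucine sensor family, fell too (-1.78 ± 0.22 in NICD1-EC-OE mice and -0.96 ± 0.18 in control mice), as did the mTORC1 inhibitor Tsc2 (-0.67 ± 0.12 in NICD1-EC-OE mice and -1.13 ± 0.10 in control mice). The NICD1-EC-OE fall of Sesn1 ended at a mean of 3.51, near background (95th percentile 3.48), so its size is uncertain. Lamtor1, which anchors mTORC1 to the lysosome, rose by 0.86 ± 0.19 in NICD1-EC-OE mice and 0.70 ± 0.16 in control mice.

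**Figure D5:**
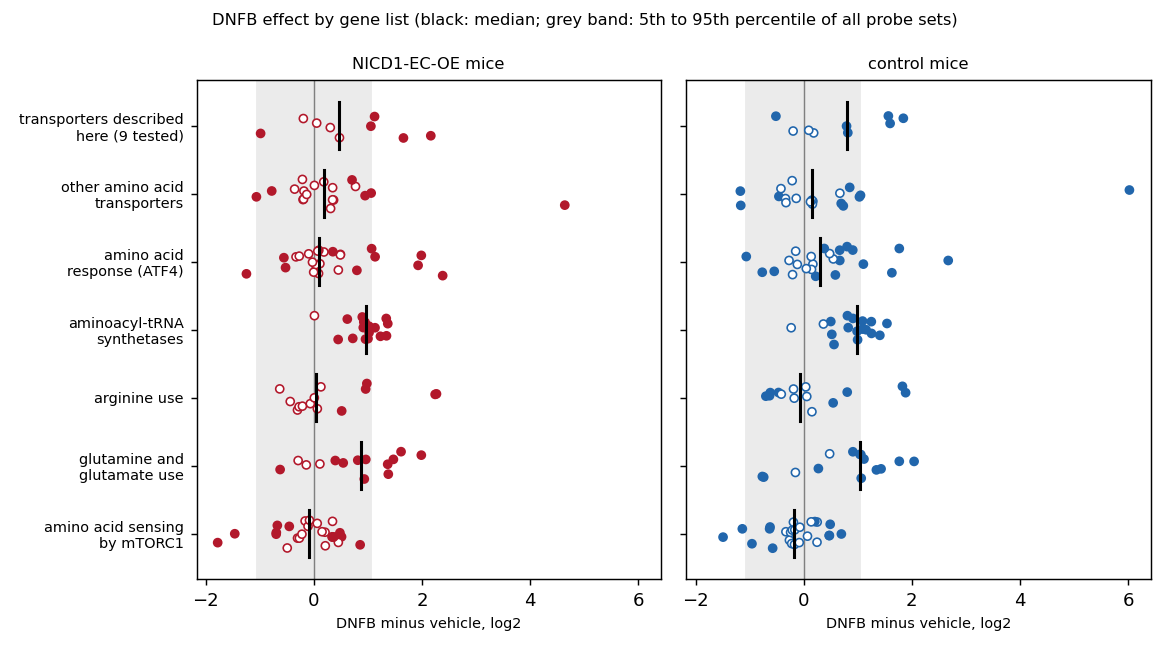
DNFB minus vehicle (log2, horizontal axis) of each gene tested, by list, in NICD1-EC-OE mice (left) and control mice (right); filled points have an adjusted p under 0.05, black lines are list medians and the grey band spans the 5th to 95th percentile of all probe sets. The aminoacyl-tRNA synthetases and the genes of glutamine and glutamate use have medians between 0.87 and 1.05, while the lists of the remaining carriers, arginine use, the ATF4 response and mTORC1 sensing have medians between -0.17 and 0.30.

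Genes whose pattern over the 20 arrays was nearest to a transporter were taken by the root mean square difference of the centred log2 values, for the 3 transporters with the largest DNFB differences in control mice. Pgd, an enzyme of the pentose phosphate pathway, and Mybbp1a, a nucleolar protein, were nearest to Slc7a1, at 0.215 and 0.218 log2. Irf8, a transcription factor best known in myeloid cells, and Mlkl, the effector of necroptosis, were nearest to Slc38a1, at 0.32 and 0.34. Ms4a4d and Ggct, an enzyme of glutathione turnover, were nearest to Slc7a5, at 0.35 and 0.40. All 6 were chosen for their likeness, which is a description and no test.

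Markers of other cells moved with DNFB too. The summed level of 10 neutrophil markers was 8.96 to 9.26 log2 in NICD1-EC-OE DNFB ears against 6.54 to 6.75 in vehicle ears, and 8.71 to 10.89 in control DNFB ears against 6.54 to 6.86 in vehicle ears. In vehicle ears 7 of the 10 lay at or under background in NICD1-EC-OE mice and 9 in control mice, so the filter on low values favoured those that were high with DNFB, and no count of calls is given for them. Ly6g, Ngp and Camp stayed at or under background in all 4 groups. The summed level of 11 macrophage and dendritic markers was 8.59 to 9.16 in NICD1-EC-OE DNFB ears against 7.67 to 8.0 in vehicle ears, and 8.74 to 9.41 in control DNFB ears against 7.68 to 8.39 in vehicle ears. Of these 11, 6 lay at or under background in NICD1-EC-OE vehicle ears and 7 in control vehicle ears, and Adgre1 and Itgax did so in every group. The 4 platelet markers measured summed to 7.70 to 8.63 in NICD1-EC-OE DNFB ears against 5.92 to 6.46 in vehicle ears, and to 8.29 to 10.01 in control DNFB ears against 6.37 to 7.83 in vehicle ears, and 3 of them rose in NICD1-EC-OE mice and 4 in control mice. Of 10 keratinocyte markers tested, 3 rose in NICD1-EC-OE mice, and 4 rose and 1 fell in control mice. Krt16 lay at or under background in vehicle ears of both genotypes, and Krt6a in those of control mice. Beside all marker counts given here, 20% of all probe sets rose and 18.1% fell in NICD1-EC-OE mice. In control mice the shares were 23.7% and 23.6%. With so few markers, the keratinocyte and fibroblast counts are not read as different from those shares. Endothelial markers summed to 13.56 to 13.79 in NICD1-EC-OE DNFB ears against 13.84 to 14.04 in vehicle ears, and to 13.36 to 13.68 in control DNFB ears against 13.87 to 14.13 in vehicle ears, and 5 of 10 fell in NICD1-EC-OE mice and 9 of 10 in control mice. The 8 pericyte and smooth muscle markers summed to 11.31 to 11.74 in NICD1-EC-OE DNFB ears against 12.25 to 12.65 in vehicle ears, and to 11.69 to 12.44 in control DNFB ears against 12.54 to 12.83 in vehicle ears. Of these, 6 fell in NICD1-EC-OE mice (median -1.38) and 7 in control mice (median -0.80). The 6 fibroblast markers summed to 10.12 to 11.30 in NICD1-EC-OE DNFB ears against 10.48 to 11.09 in vehicle ears, and to 11.18 to 11.99 in control DNFB ears against 10.35 to 11.34 in vehicle ears, and 2 rose and 1 fell in NICD1-EC-OE mice and 3 rose in control mice. The 4 lymphatic endothelial markers summed to 11.19 to 11.96 in NICD1-EC-OE DNFB ears against 10.44 to 11.55 in vehicle ears, and to 10.66 to 11.23 in control DNFB ears against 9.35 to 10.20 in vehicle ears, so that the genotypes did not overlap in vehicle ears. These 4 did not move together: 1 rose and 1 fell in each genotype (medians -0.05 in NICD1-EC-OE mice and 0.15 in control mice). Every summed level here is of unlogged values, so the brightest markers weigh most in it. The part of these markers in the transporter differences was not tested.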

How the data were processed

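Expression was measured on 20 single-colour Affymetrix arrays of FACS-sorted ear endothelial cells. The authors deposited log2 values from RMA in Affymetrix Expression Console, per the submitters' processing notes, amplified from 1 ng total RNA per the labels' protocols; tool versions are not given in the sources used here. Of 41345 probe sets, 23521 had 1 gene symbol in the platform annotation, 1814 several and 16010 none. Probe sets with 1 symbol that exceeded the array median on at least 4 arrays were tested (14886 probe sets, 14178 genes). Groups came from the sample labels.

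limma 3.58.1 in R 4.3.3 fitted 1 mean per group over all 20 arrays, with empirical Bayes variances and Benjamini-Hochberg adjustment over all probe sets tested, at an adjusted p of 0.05. The fit was tested on simulated data. The comparisons made were DNFB against vehicle in each genotype, genotype within each treatment, and the interaction. The number of arrays limits the precision, and p-values measure the spread between these arrays, since no label states separate animals beyond the word mouse.

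The members and gene lists were chosen with earlier results of these data known. The lists share genes: Asns and Gpt2 stand in both the ATF4 and the glutamine lists, and Sesn2 in both the ATF4 and the mTORC1 lists. Named genes were the members, the light chains of Slc3a2, up to 4 genes per list with the largest control DNFB difference past the threshold, and the nearest patterns; exceptions are named as such. Alternatives changed the filter, the normalization, the variance model, the arrays in the fit, the replicate block and single arrays. Protein sequences were not used here. Promoter sequences came from RefSeq (GRCm38.p6), and figures were drawn with matplotlib.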

Additional observations from a re-analysis of the deposited data

Results flagged for a closer look

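A single array stood apart from its group in 5 of the 40 sets of arrays checked (10 genes in 4 groups), by the share of the group's range taken up by the gap to the nearest array; chance alone gives about 1 in 20. For Slc7a2, control vehicle replicate 5 was at 5.93 against 5.35 for the next array (gap share 0.75), and it was among the 4 arrays whose removal ended the control DNFB call of Slc7a2. For Slc1a4, control DNFB replicate 1 was at 5.98 against 5.40 (0.702). For Slc1a5, NICD1-EC-OE vehicle replicate 3 was at 8.60 against 8.13 (0.917), and control vehicle replicate 2 was low, at 8.57 against 9.09 (0.663). For Slc38a1, the same NICD1-EC-OE vehicle replicate 3 was at 4.57 against 4.04 (0.932).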

How the results depend on the processing

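Of 473 results of single transporters under alternatives other than leaving out single arrays, 438 kept direction and side of the threshold. These include fits of only the groups compared and results of the second Slc1a5 probe set. The number of transporters raised by DNFB stayed at 5 in control mice under the alternatives of filter, normalization, variance model, arrays fitted and replicate block and with single arrays left out. With the second Slc1a5 probe set in place of the first it was 4 in control mice and 3 in NICD1-EC-OE mice, and 4 instead of 5 were lower in NICD1-EC-OE DNFB ears. With the first probe set, the number raised in NICD1-EC-OE mice was 5 instead of 4 with centring, array weights, only the groups compared or a fixed block, and ranged from 3 to 5 when single arrays were left out. The number lowered by DNFB in control mice was 0 with cyclic loess and 0 to 1 with single arrays left out (Slc7a2, with loess -0.46, adjusted p = 0.0526). The number lower in NICD1-EC-OE DNFB ears was 3 with quantile normalization, 2 with centring and 3 with cyclic loess, against 5 as deposited, and 4 to 5 with single arrays left out. Some genotype differences changed sign, of which that of Slc7a1 in DNFB ears had been past the threshold as deposited and the others had not. In vehicle ears they were Slc1a4 (quantile 0.13, centring 0.13, loess 0.15), Slc3a2 (0.0298, 0.31 and 0.0439), Slc7a5 (0.12, 0.31 and 0.11) and Slc7a1 (quantile 0.0075, centring 0.15). In DNFB ears Slc3a2 turned to 0.22 and Slc7a1 to 0.011 with centring, and Slc1a4 to -0.0125 with array weights. The Slc38a2 interaction turned to -0.03 with quantile, -0.064 with loess and -0.0375 with array weights, and the Slc3a2 DNFB difference in NICD1-EC-OE mice to -0.11 with loess. With single arrays left out, signs also changed for the DNFB difference of Slc1a4 in control mice (-0.025 to 0.14) and of Slc3a2 in NICD1-EC-OE mice (-0.0274 to 0.14), for the genotype difference of Slc1a4 (-0.10 to 0.20) and Slc38a1 (-0.0404 to 0.25) in DNFB ears and of Slc7a5 (-0.23 to 0.18) and Slc3a2 (-0.10 to 0.0633) in vehicle ears, and for the Slc38a2 interaction (-0.15 to 0.12). The causes were not tested. Over all probe sets, genotype calls in DNFB ears numbered 6036 as deposited, 3553 with quantile and 3539 with loess, and in vehicle ears 5343, against 2412 with quantile, 2741 with centring and 2326 with loess. Interaction calls numbered 2, against 0 to 29 under the alternatives (29 without control DNFB replicate 6).

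Replicate numbers were not taken as pairs, since no label ties them to shared animals. Deviations of same-numbered DNFB and vehicle arrays correlated at 0.05 to 0.23 in NICD1-EC-OE and 0.04 to 0.27 in control mice, positive in 10 of 10 pairs and above 0.1 in 5, and 7 of 10 arrays correlated best with their own number, a hint of pairing from the data and not the design. By number, Slc3a2 was higher with DNFB in 6 of 6 and Slc38a2 lower in 6 of 6 control pairs, but neither passed with a fixed replicate block (adjusted p = 0.134 for Slc3a2 and 0.19 for Slc38a2). With a fixed replicate block, 5 transporters rose in NICD1-EC-OE mice instead of 4, since Slc1a1 passed (0.47, adjusted p = 0.0179), and 5 rose and 1 fell in control mice; with a random replicate block the counts were 4 and 5, and no other call changed.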
